A study of Mus musculus with 6 samples.

Results

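The 10 genes described here are the mouse Toll-like receptors Tlr1, Tlr2, Tlr3, Tlr4, Tlr5, Tlr6, Tlr7, Tlr8, Tlr9 and Tlr13. They were taken by symbol from a table of 36870 distinct gene symbols, and all 10 passed the filter on low values, which left 13266 genes. RNA-seq was performed on bone marrow mesenchymal stem cells (BMMSCs) of C57BL/6 mice, the adherent cells that grow out of flushed femurs and tibias. Of the 6 libraries, 3 came from control BMMSCs and 3 from BMMSCs treated with siRNAs against Tet1 and Tet2, enzymes that oxidise 5-methylcytosine in DNA. The labels give passage p2. They name non-targeting siRNA as the negative control, while the methods for RNA-seq call the control a vehicle. The comparison asks how the receptors differ after the knockdown, with those of the endosome set beside those of the cell surface. Nothing in the labels says that the 3 libraries of a group came from separate cultures or animals, so the p-values measure only the spread between these libraries.

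Toll-like receptors are membrane proteins that recognise molecules of microbes through a leucine-rich ectodomain and signal through a cytoplasmic TIR domain. TLR1, TLR2, TLR4, TLR5 and TLR6 reach the cell surface and bind bacterial lipopeptides, lipopolysaccharide or flagellin. TLR3, TLR7, TLR8, TLR9 and TLR13 sit in endosomes, where they meet nucleic acids. Both kinds signal through the adaptors MyD88 or TRIF to NF-κB and interferon regulatory factors, and macrophages are among the cells best known for expressing them.

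Levels are in RPKM, the number of reads scaled to the length of the gene and the depth of the library. The unit is per length, so levels can be compared between genes. Tet2 was 3.45 ± 0.785 RPKM (SD, n = 3) in control and 0.266 ± 0.0817 in the siRNA libraries, and it fell (adjusted p = 2.88e-05, limma). Tet1 was under 0.1 RPKM in every library and was not tested. Depth was estimated from the steps between low values at 32300000 to 38500000 reads per library. Pearson's r of log2(RPKM + 1) was 0.992 to 0.997 within groups and 0.949 to 0.969 between them.

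The cells are labelled as stromal, yet macrophage transcripts were high in both groups. Csf1r, the receptor for the macrophage growth factor CSF-1, was 478 to 519 RPKM in control and 578 to 619 in the siRNA libraries. Ptprc, which encodes the leukocyte antigen CD45, was 47.4 to 56.0 and 47.2 to 59.3 RPKM. Of 11 macrophage markers, 6 were higher, 2 (Fcgr1 and Mrc1) were lower and 3 were not called. Their log2 fold changes ran from -1.93 for Fcgr1 to 1.36 for Lyz2, so the list did not move together. Its summed level was 5755 to 7495 RPKM in control and 12717 to 15632 in the siRNA libraries, most of it Lyz2. Of 12 stromal markers, 10 were tested, of which 7 were lower, 1 (Vcam1) was higher and 2 were not called. Their summed level was 1027 to 1473 RPKM in control and 190 to 318 in the siRNA libraries, and the stromal markers Thy1 and Lepr stayed at or under 0.146 RPKM throughout. Most markers of other cells that use Toll-like receptors were near the lowest values: the dendritic cell genes Siglech, Ccr9, Flt3, Xcr1 and Clec9a were at or under 0.114 RPKM, and the B cell genes Cd79a, Ms4a1 and Pax5 at or under 0.06. Of the same lists, Itgax was 6.52 to 8.51 RPKM in control and 9.13 to 10.2 after siRNA, Cd79b was 0.283 to 0.889 and 0.931 to 1.29, and both were called higher (adjusted p = 0.0351 and 0.0217, limma). Of 6 neutrophil markers, 2 were tested, S100a8 (higher) and Camp (lower). Of 3 endothelial markers, 1 was lower, 1 higher and 1 not called. In such bulk samples, fewer cells of a type and less RNA per cell cannot be told apart, and the part of these marker shifts in the receptor values was not tested.

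The receptors spanned a wide range of levels, with 3 endosomal receptors at the top. In control libraries the order by mean RPKM was Tlr13, Tlr8, Tlr7, Tlr4, Tlr1, Tlr3, Tlr2, Tlr6, Tlr9 and Tlr5. In siRNA libraries Tlr3 moved below Tlr2 and Tlr6, and the other places stayed the same. In each group the ranges of Tlr2 and Tlr6 overlapped, and no other neighbours in the order did. Tlr13 alone made up 53.9 to 54.8% of the summed receptor RPKM in control and 55.2 to 58.1% in the siRNA libraries. The remaining mouse receptors of the family were at the edge of detection: Tlr11 was 0.038 to 0.075 RPKM in control and 0.008 to 0.049 after siRNA, and Tlr12 was at the lowest listed value of 0.001 in every library but siRNA library 2.

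**Figure D1:**
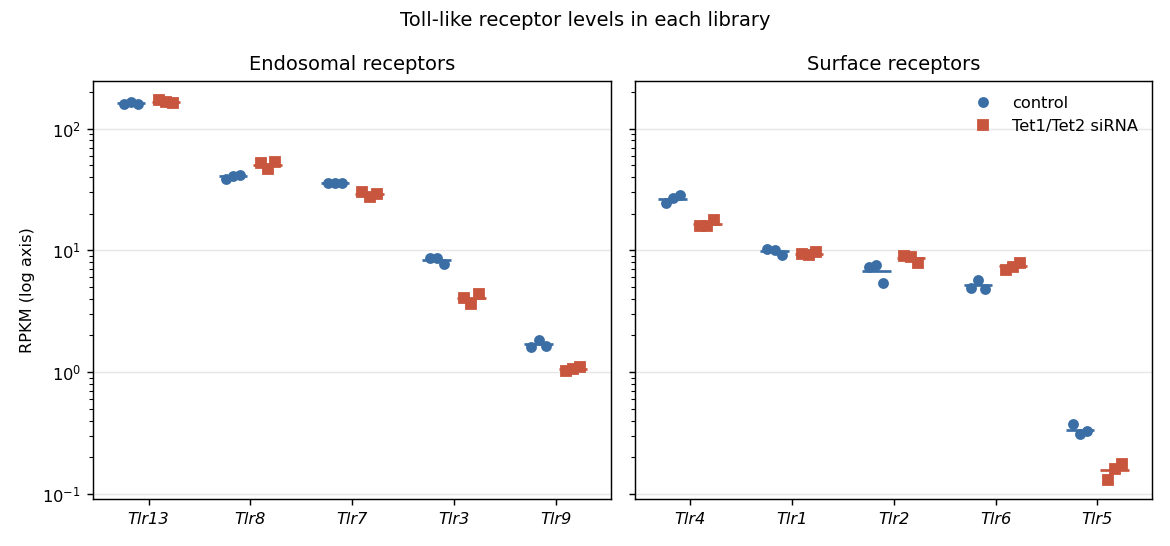
RPKM of each receptor (log axis) in the 3 control libraries (circles) and the 3 Tet1/Tet2 siRNA libraries (squares), with endosomal receptors on the left, surface receptors on the right and a line at each group mean. Tlr13 sits between 158 and 172 RPKM, Tlr5 lies under 0.4 RPKM, and the groups do not overlap for Tlr3, Tlr4, Tlr5, Tlr7 and Tlr9 (lower after siRNA) or for Tlr2, Tlr6 and Tlr8 (higher). The share of all genes without overlap is not given here, so this count cannot be set apart from the broad shifts. Over all genes tested, 29.8% were called lower and 14.7% higher.

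Both classes moved in both directions. Of the 5 endosomal receptors, 3 fell (Tlr3, Tlr7 and Tlr9), 1 rose (Tlr8) and 1 was not called (Tlr13). Of the 5 surface receptors, 2 fell (Tlr4 and Tlr5), 1 rose (Tlr6) and 2 were not called (Tlr1 and Tlr2). A call means an adjusted p under 0.05 in limma on log2(RPKM + 1), and by that rule 29.8% of the 13266 genes tested were lower and 14.7% were higher, so the 5 of 10 receptors that fell and the 2 of 10 that rose stand beside broad shifts over all genes. That split moved with the scaling: 19.8% of genes were lower and 27.2% higher with quantile normalization, which left 2 receptors that fell (Tlr3 and Tlr4) and 3 that rose (Tlr2, Tlr6 and Tlr8). With median ratio scaling it was 23.4% and 20.3%. The median log2 fold change was -0.29 for the endosomal receptors, -0.06 for the surface receptors, -0.13 for all 10 and -0.09 for all genes tested. With an unadjusted p under 0.05 and a change over 2-fold on that scale, 6.58% of genes were altered and 0 of 10 receptors were. Yet 8 of 10 had an unadjusted p under 0.05. At least 6864 of the 13266 genes tested also did, so this count does not set the receptors apart from the broad shifts. The 0 depended on the 1 added to RPKM. With 0.1 or 0.01 added instead, the log2 fold change of Tlr3 was -1.04 or -1.05, and with 0.01 that of Tlr5 was -1.07. Rescaling every library to the same sum gave -1.04 for Tlr3. The share of all genes over 2-fold was not computed under these settings. The median of all genes shifted from -0.09 to 0.06 under quantile normalization, so the change relative to that median is given for members whose call depended on it.

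**Figure D2:**
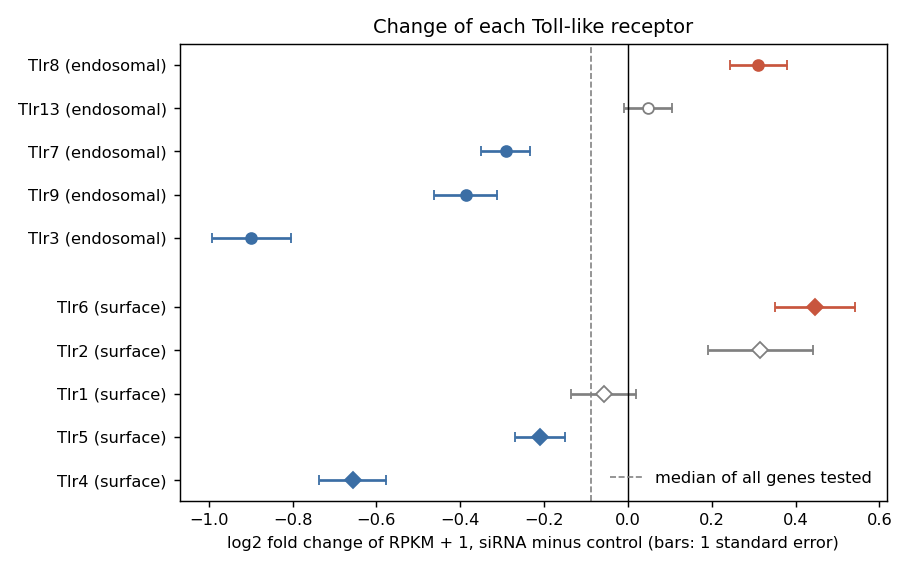
Log2 fold change of RPKM + 1 (siRNA minus control) for each receptor, with bars of 1 standard error. Filled blue symbols were lower and filled red symbols higher at an adjusted p under 0.05, open symbols were not called, and the dashed line is the median of all genes tested (-0.09). Values run from -0.90 for Tlr3 to 0.45 for Tlr6, and both classes have symbols on either side of 0.

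Promoter windows show which letters precede the start sites of the receptors that moved. RefSeq windows of GRCm38.p6, 300 bases each from 250 before to 50 after a start, were found for 8 of 10 receptors (10 windows), and Tlr4 and Tlr7 had no entry. The motifs searched on both strands were the interferon-stimulated element core GAAANNGAA, the κB site GGAANTTCC, the AP-1 site TGANTCA, the PU.1 site GAGGAAGT and the STAT site TTCNNNGAA. Of 32851 windows, these were held by 8.56%, 0.928%, 7.81%, 3.20% and 8.30%. The runs below are the upstream parts of the windows of Tlr6 and Tlr8, the receptors that rose, and of Tlr9, which fell, each 5′ to 3′ on the strand of the gene with motif matches in capitals.
Tlr6, chr5:64959226-64959336, minus strand: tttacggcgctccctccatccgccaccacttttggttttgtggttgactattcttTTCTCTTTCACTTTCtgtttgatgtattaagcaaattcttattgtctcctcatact
Tlr8, chrX:167264359-167264479, minus strand: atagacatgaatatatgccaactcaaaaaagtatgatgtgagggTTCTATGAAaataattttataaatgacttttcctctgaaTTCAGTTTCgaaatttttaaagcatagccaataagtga
Tlr9, chr9:106222348-106222597, plus strand: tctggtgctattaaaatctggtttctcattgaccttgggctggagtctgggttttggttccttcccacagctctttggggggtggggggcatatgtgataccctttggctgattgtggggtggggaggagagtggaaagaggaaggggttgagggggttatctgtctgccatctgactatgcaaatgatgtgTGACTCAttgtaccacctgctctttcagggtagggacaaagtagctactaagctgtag

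In the Tlr6 run the capitals are 2 overlapping matches to the interferon-stimulated element core, in the reverse orientation. They lie 115 and 109 bases before a start that is inside the span of the GENCODE gene. The Tlr6 window at the other start held 2 STAT matches and is not shown. In the Tlr8 run the first capitals are a STAT match 106 bases before the start and the second are the interferon-stimulated element core, reversed, 67 bases before it. In the Tlr9 run the capitals are the AP-1 site 58 bases before the start, and a reversed PU.1 site lies 10 bases inside the transcript. Tlr1 held a PU.1 match and, at its other start, a STAT match, while the windows of Tlr2, Tlr3, Tlr5 and Tlr13 held none of these letters. CpG dinucleotides, the usual substrate of DNA methylation in mammals, numbered 0 in the Tlr9 window and 1 in the Tlr8 window, against a median of 7 over all windows. At most that many were found in 5.40% of windows for Tlr9 and in 14.1% for Tlr8. The windows of the other matched receptors held 3 to 11. The matches describe letters and not bound sites, and DNA methylation was not analysed here.

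Tlr3, the receptor for double-stranded RNA (chromosome 8, 45395665 to 45411080, minus strand, GRCm38), had the largest decrease of the 10 on the log2(RPKM + 1) scale. Its level was 8.69, 8.73 and 7.69 RPKM in control libraries 1 to 3 and 4.07, 3.62 and 4.41 in siRNA libraries 1 to 3. The lowest control library was well above the highest siRNA library. The mean went from 8.37 ± 0.588 to 4.03 ± 0.394 RPKM (SD, n = 3 each), a ratio of means of 2.08-fold lower. On the log2 scale it fell by 0.90 ± 0.10 (SE, adjusted p = 0.000157, limma). About 615 to 1425 reads lay behind each value. An antisense gene, Gm45542, shares 381 exon bases with Tlr3 on the opposite strand, and the longest Tlr3 transcript has 4407 bases. Whether strand was used in counting is not given in the sources used here, so reads in the shared bases cannot be told apart.

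Tlr7, a receptor for single-stranded RNA (chromosome X, 167304929 to 167330558, minus strand), was among the most abundant receptors and declined modestly. Control libraries held 35.5, 35.6 and 36.0 RPKM and siRNA libraries 30.2, 27.5 and 29.2. The control values lay close together and above every siRNA value. The mean went from 35.7 ± 0.298 to 29.0 ± 1.37 RPKM, and the log2 fold change was -0.29 ± 0.06 (SE, adjusted p = 0.0046, limma). This call depended on the scaling. The change was -0.21 relative to the median of all genes, the adjusted p was 0.0518 with quantile normalization, and the log2 fold change was -0.04 (adjusted p = 0.796) when the libraries were scaled to the macrophage markers.

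Tlr8, the close relative of Tlr7 in the same region of the X chromosome (167242696 to 167264329, minus strand), moved the other way. Its level was 38.9, 40.6 and 42.0 RPKM in control and 52.2, 46.6 and 52.9 in the siRNA libraries. Every siRNA library exceeded every control library. The mean went from 40.5 ± 1.54 to 50.6 ± 3.43 RPKM, 24.8% higher, and the log2 fold change was 0.31 ± 0.07 (SE, adjusted p = 0.00661, limma). The ratio of Tlr8 to Tlr7 RPKM within a library was 1.10, 1.14 and 1.17 in control and 1.73, 1.69 and 1.81 after siRNA. Being taken within a library, this ratio does not change when a library is multiplied by a constant factor, but quantile normalization can change it. The ranges of the ratio did not overlap, which follows from Tlr8 being higher and Tlr7 lower in every siRNA library than in any control library.

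Tlr9, the receptor for unmethylated CpG DNA (chromosome 9, 106222598 to 106226883, plus strand), was low and fell. Control libraries held 1.61, 1.84 and 1.64 RPKM, and siRNA libraries held 1.02, 1.06 and 1.10, so the groups were apart. Its mean went from 1.70 ± 0.126 to 1.06 ± 0.0403 RPKM, 1.6-fold lower, with a log2 fold change of -0.39 ± 0.08 (SE, adjusted p = 0.00369, limma). About 136 to 211 reads lay behind each value. The change was -0.30 relative to the median of all genes, and with quantile normalization the log2 fold change was -0.14 (adjusted p = 0.158). The level of this gene is low enough that the pseudocount of 1 compressed the change. Its promoter run, shown above, held no CpG.

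Tlr13, a receptor for bacterial ribosomal RNA (chromosome X, 106143204 to 106160493, plus strand), was the most abundant of the 10 and had no called change. Control libraries held 159, 166 and 158 RPKM and siRNA libraries 172, 167 and 161. The groups overlapped. The mean was 161 ± 4.42 in control and 167 ± 5.30 RPKM after siRNA, and the log2 fold change was 0.05 ± 0.06 (SE, adjusted p = 0.529, limma). Its sign turned to -0.015 when every library was rescaled to the same sum.

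Tlr4, the receptor for lipopolysaccharide (chromosome 4, 66827584 to 66930284, plus strand), was the most abundant surface receptor and had the largest decrease of its class on the log2(RPKM + 1) scale. Its level was 24.3, 26.7 and 28.3 RPKM in control and 15.8, 15.7 and 17.7 in the siRNA libraries. No siRNA library came near the control range. The mean went from 26.4 ± 2.00 to 16.4 ± 1.12 RPKM, 1.61-fold lower, and the log2 fold change was -0.66 ± 0.08 (SE, adjusted p = 0.000315, limma). Tlr4 was 0.153 to 0.179 of the Tlr13 level in control and 0.0918 to 0.110 of it after siRNA.

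Tlr2, which pairs with TLR1 or TLR6 to bind lipopeptides (chromosome 3, 83836272 to 83841767, minus strand), was not called. Its level was 7.35, 7.54 and 5.38 RPKM in control and 9.06, 8.87 and 7.84 after siRNA. Control library 3 lay under the others, and the lowest siRNA library was still above the highest control. The mean was 6.76 ± 1.19 in control and 8.59 ± 0.659 RPKM after siRNA, and the log2 fold change was 0.32 ± 0.13 (SE, adjusted p = 0.0711, limma). Without control library 3 it was 0.18 (adjusted p = 0.136). With the replicate number as a block the adjusted p was 0.016, and relative to the median of all genes the change was 0.40.

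Tlr1 and Tlr6, the partners of Tlr2, lie near each other on chromosome 5 (64924679 to 64933563 and 64952031 to 64960097, both on the minus strand). Tlr1 was 10.3, 10.1 and 9.10 RPKM in control and 9.36, 9.18 and 9.65 in the siRNA libraries. These groups overlapped, with a log2 fold change of -0.06 ± 0.08 (SE, adjusted p = 0.57, limma), and its sign turned to 0.03 with median ratio scaling and to 0.10 with quantile normalization. Tlr6 was 4.88, 5.76 and 4.83 RPKM in control and 6.90, 7.31 and 7.94 after siRNA, and its groups were apart. The mean of Tlr6 went from 5.16 ± 0.525 to 7.38 ± 0.524 RPKM, 43.1% higher, with a log2 fold change of 0.45 ± 0.10 (SE, adjusted p = 0.00596, limma). The ratio of Tlr6 to Tlr1 RPKM was 0.474, 0.570 and 0.531 in control and 0.737, 0.796 and 0.822 in the siRNA libraries. Their longest transcripts share 454 windows of 50 identical bases, 15.3% of those of Tlr1 and 12.5% of those of Tlr6, and no other pair of members shares any. How reads that match both were split is not given in the sources used here, so the levels of this pair are uncertain.

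Tlr5, the flagellin receptor (chromosome 1, 182954788 to 182976044, plus strand), was close to the lower limit of the data. Its level was 0.374, 0.310 and 0.327 RPKM in control and 0.130, 0.161 and 0.176 after siRNA, which is about 53, 39 and 40 reads against 19, 24 and 24. The groups did not overlap. The mean went from 0.337 ± 0.0332 to 0.156 ± 0.0235 RPKM, a ratio of 2.16-fold lower, but the pseudocount reduced this to a log2 fold change of -0.21 ± 0.06 (SE, adjusted p = 0.0197, limma), or -0.12 after subtracting the median of all genes. With median ratio scaling of the libraries it was -0.19 and still called (adjusted p = 0.0282). The call was lost without control library 1 (adjusted p = 0.0567), siRNA library 1 (0.0728) or siRNA library 2 (0.0583), and without the filter on low values (0.0937), with quantile normalization (0.211) or relative to the macrophage markers (0.0597).

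The balance between receptors showed these shifts within each library. The summed level of the endosomal receptors was 243 to 253 RPKM in control and 245 to 260 in the siRNA libraries, so the ranges overlapped while single members fell and rose. That of the surface receptors was 47.2 to 50.4 in control and 41.2 to 43.3 after siRNA, and without Tlr4 it was 19.6 to 23.7 and 25.5 to 25.6. Thus the lower surface sum came with Tlr4, and the other 4 surface receptors together lay above their control range. The endosomal share of the total was 83.4 to 83.8% in control and 85.2 to 86.3% after siRNA, with means that differed by 2.09 points. Without Tlr13 it was 63.3 to 64.6% and 65.7 to 68.0%. The ratio of Tlr2 to Tlr4 was 0.302, 0.282 and 0.190 in control and 0.574, 0.564 and 0.443 after siRNA. Its separation follows from Tlr2 being higher and Tlr4 lower in every siRNA library than in any control library.

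**Figure D3:**
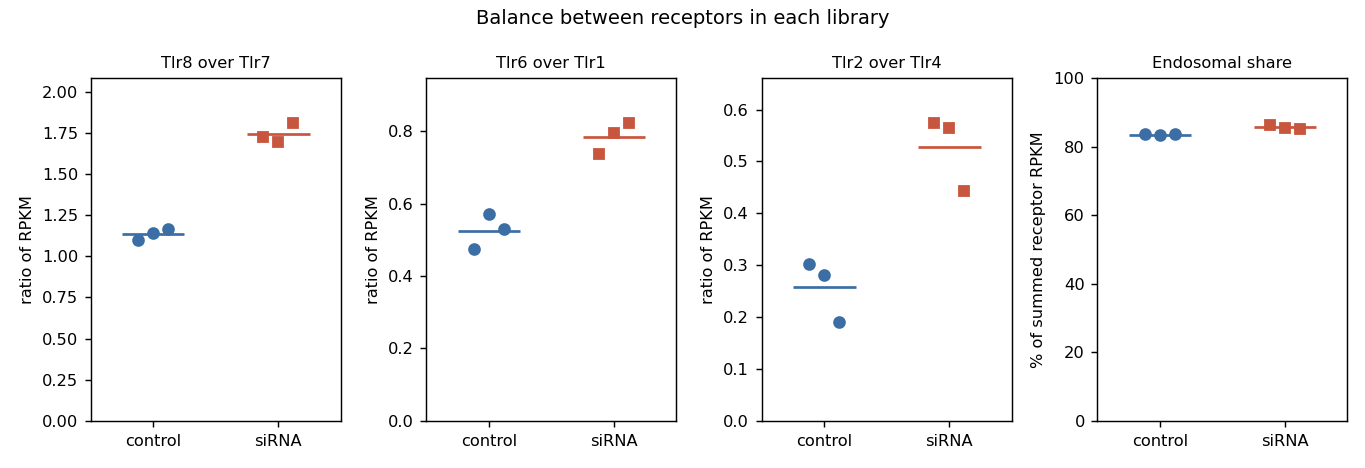
Ratios of RPKM within each library (Tlr8 over Tlr7, Tlr6 over Tlr1, Tlr2 over Tlr4) and the endosomal share of the summed receptor RPKM in percent, for 3 control (circles) and 3 siRNA libraries (squares), with a line at each mean and all axes from 0. The siRNA libraries lie above the control libraries in all 4 panels, at 1.69 to 1.81 against 1.10 to 1.17 for Tlr8 over Tlr7 and at 85.2 to 86.3% against 83.4 to 83.8% for the endosomal share. For Tlr8 over Tlr7 and Tlr2 over Tlr4 this follows from the levels of the receptors, which were apart in opposite directions.

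The counts of the pathway lists that follow stand beside 29.8% of all genes lower and 14.7% higher, or 19.8% and 27.2% with quantile normalization, and no list was tested against them. Of 6 co-receptor genes, which hand ligands to the surface receptors or modulate them, 2 fell, 2 rose and 2 were not called, with a median log2 fold change of 0.02. Cd14, which delivers lipopolysaccharide to TLR4, rose from 38.8 ± 4.25 to 50.5 ± 2.64 RPKM (adjusted p = 0.00878, limma). It was not called without the filter on low values (adjusted p = 0.0998) or with the gene-wise variance (0.0549). Ly96, which encodes the lipopolysaccharide-binding MD-2 subunit of the TLR4 complex, was 11.6 ± 1.77 and 10.2 ± 1.17 RPKM (adjusted p = 0.306). Cd36, a scavenger receptor that assists TLR2 and TLR6, rose from 1101 ± 101 to 1856 ± 190.0 RPKM (adjusted p = 0.00124). Cd180, a receptor-like homologue of TLR4, fell from 122 ± 1.22 to 91.5 ± 4.09 RPKM (adjusted p = 0.000683). Its partner Ly86, which encodes MD-1, fell with it, from 58.4 ± 8.76 to 38.6 ± 2.31 RPKM (adjusted p = 0.00312). Scaled to the macrophage markers, neither of these last genes was called, with adjusted p-values of 0.357 and 0.136. Ly86 was also not called without the filter on low values (adjusted p = 0.071).

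Of 8 genes for folding and transport of the receptors, 2 fell, 2 rose and 4 were not called, with a median log2 fold change of 0.02. Unc93b1, whose product escorts the endosomal receptors out of the endoplasmic reticulum, was 193 ± 4.51 RPKM in control and rose to 229 ± 4.23 (log2 fold change 0.25, adjusted p = 0.00888, limma). Hsp90b1, the chaperone gp96, fell from 437 ± 34.4 to 356 ± 30.4 RPKM (adjusted p = 0.0292), and Cnpy4 fell from 16.0 ± 1.58 to 12.9 ± 1.25 (adjusted p = 0.0395). Cnpy3, a co-chaperone of gp96 for several receptors, rose from 44.0 ± 2.02 to 50.5 ± 2.42 RPKM (adjusted p = 0.0383). Leaving out a library ended the call of Hsp90b1 for control library 2 and siRNA libraries 1 and 2 (adjusted p = 0.0753 to 0.127). It ended that of Cnpy4 for control libraries 1 and 2 and siRNA libraries 1 and 2 (0.0651 to 0.138), and that of Cnpy3 for every library but siRNA library 1 (0.0505 to 0.146). Hsp90b1 and Cnpy4 also lost the call with median ratio scaling (adjusted p = 0.11 and 0.121), with quantile normalization (0.152 and 0.216) and relative to the macrophage markers, where their log2 fold changes were -0.03 and -0.05. Cnpy3 lost it with every library rescaled to the same sum (0.124).

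Of 6 adaptors, 5 were tested by limma, of which 2 fell, 0 rose (also 0 at an unadjusted p under 0.05) and 3 were not called, with a median of -0.11. Myd88, the adaptor of every receptor here except TLR3, fell from 44.7 ± 2.55 to 30.8 ± 0.541 RPKM (log2 fold change -0.52, adjusted p = 0.000277, limma). Pik3ap1, which encodes the signalling adaptor BCAP, fell from 320 ± 6.09 to 193 ± 4.36 RPKM (adjusted p = 4.42e-05). Ticam1, which encodes TRIF, an adaptor of TLR3 but not of TLR3 alone, was 8.11 ± 0.275 and 8.81 ± 0.0928 RPKM (adjusted p = 0.254). Ticam1 was called higher with quantile normalization (log2 fold change 0.27, adjusted p = 0.0201), with the gene-wise variance (0.0442) and relative to the macrophage markers (0.0279). Myd88 was not called when the libraries were scaled to the macrophage markers (adjusted p = 0.0993).

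Downstream, of 20 kinases and ubiquitin enzymes, 4 fell, 7 rose and 9 were not called, with a median of 0.06. Ikbke, a kinase of interferon regulatory factors, fell from 31.7 ± 0.594 to 19.9 ± 0.792 RPKM (adjusted p = 8.05e-05, limma). The ubiquitin ligase genes Peli2 (4.6 ± 0.833 to 8.13 ± 2.02 RPKM, adjusted p = 0.0113) and Peli3 (0.684 ± 0.0993 to 1.51 ± 0.368, adjusted p = 0.00402) rose, but neither was called without the filter on low values (0.15 and 0.0673). Peli2 was also not called with the gene-wise variance (0.0791). Of 11 transcription factors, 2 fell, 1 rose and 8 were not called, with a median of 0.09. Irf7, which drives type I interferon genes behind TLR7 and TLR9, fell from 272 ± 28.1 to 7.81 ± 4.09 RPKM (log2 fold change -5.05, adjusted p = 7.2e-06), a larger difference than that of any receptor. Irf5 fell from 81.7 ± 4.30 to 58.9 ± 2.69 RPKM (adjusted p = 0.000639) but was not called relative to the macrophage markers (adjusted p = 0.209), and Fos, a subunit of AP-1, rose from 29.1 ± 1.21 to 35.3 ± 0.776 (adjusted p = 0.00659).

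Of 12 negative regulators, 6 fell, 2 rose and 4 were not called, with a median of -0.25. Socs1, an inhibitor of cytokine signalling, fell from 2.51 ± 0.259 to 0.915 ± 0.110 RPKM (adjusted p = 0.000132, limma), and Nfkbiz, an NF-κB cofactor that can also activate genes, from 3.79 ± 1.09 to 1.28 ± 0.231 (adjusted p = 0.00103). Atf3, a repressor induced by receptor signalling, rose from 136 ± 9.25 to 201 ± 6.79 RPKM (adjusted p = 0.000355). Of 17 genes that receptor signalling is known to induce, 12 were tested, of which 10 fell, 0 rose (also 0 at an unadjusted p under 0.05) and 2 were not called, with a median of -1.15 beside -0.09 for all genes.

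Among the targets, Tnf fell from 8.31 ± 0.416 to 3.78 ± 0.627 RPKM (adjusted p = 0.000213, limma) and Il6 from 2.79 ± 0.180 to 0.175 ± 0.242 (adjusted p = 4.04e-05). The chemokines Ccl5 (24.0 ± 2.23 to 0.623 ± 0.441 RPKM, adjusted p = 2.51e-06), Cxcl10 (5.71 ± 0.0410 to 0.250 ± 0.0588, adjusted p = 6.25e-07) and Ccl4 (148 ± 7.18 to 49.1 ± 4.66, adjusted p = 5.12e-06) fell too. Ifnb1, the interferon beta gene, was 0.001, 0.078 and 0.320 RPKM in control and 0.034, 0.001 and 0.001 after siRNA and was not tested. Over all 8 lists, 74 of 82 genes were tested, and 28 fell, 14 rose and 32 were not called, beside 29.8% and 14.7% over all genes.

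**Figure D4:**
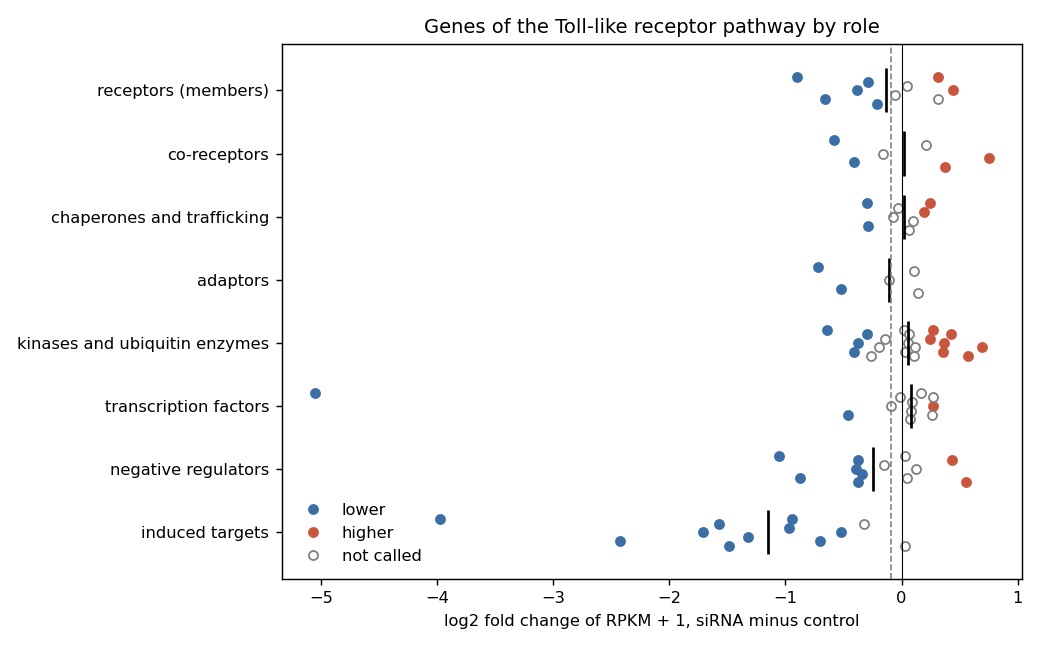
Log2 fold change of RPKM + 1 (siRNA minus control) of the receptors and of each tested gene of the pathway lists, by role. Each point is a gene (blue lower, red higher, open not called), the short black bars are the medians of each role and the dashed line is the median of all genes tested. The induced targets have a median of -1.15 and no red point, Irf7 lies apart at -5.05, and the receptors stay between -0.90 and 0.45.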

How the data were processed

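Total RNA of BMMSCs was made into 6 libraries by the authors and sequenced with paired-end reads on an Illumina instrument. Adaptors were trimmed and reads mapped to GRCm38, and abundance was estimated with DNASTAR Lasergene. The deposited values are RPKM per gene, which the authors' methods call FPKM. The annotation release, strand and treatment of reads matching several genes are not given in the sources used here, so values of near-identical or overlapping genes are uncertain. A further column holds the authors' own p-value per gene and was not used.

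Of 36915 rows, the copy with the larger mean was retained where a symbol was repeated (37 symbols), leaving 36870. Numeric symbols (27 rows) were fitted and not named. The 13266 genes averaging 0.1 RPKM or more were compared, two-sided, as log2(RPKM + 1) over all 6 libraries with limma 3.58.1 in R 4.3.3 (lmFit, eBayes with trend, Benjamini-Hochberg adjustment). Fold changes on that scale understate those of low genes. With 3 against 3 libraries an exact permutation p cannot be under 0.1. The script was tested on simulated data. Levels, sums and ratios were computed in Python 3.11.15 (numpy 2.4.6, pandas 2.3.3), and figures drawn with matplotlib 3.10.9. Positions are from GENCODE M21 and promoters from RefSeq.

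For each library, depth was set to the read total that brought the small RPKM of single-transcript genes closest to whole reads. Between 59.2% and 63.5% of these lay within 0.1 of a whole number, against 20% by chance at a fixed depth, so depths and read numbers are estimates and no count test was run. Read numbers of the receptors took the length of the longest GENCODE transcript. The gene length behind the deposited RPKM is not given in the sources used here. The members and lists were chosen with earlier results of these data known. Named genes were all members, Tet1, Tet2, 9 pathway genes fixed by name and, from each pathway list, up to 3 further genes with the largest absolute log2 fold change among those called whose groups did not overlap. Deviations of same-numbered libraries from their group means correlated at 0.149, 0.117 and 0.462. On these values alone, equal numbers were treated as pairs in an alternative fit with the replicate number as a block. However, control 1 with siRNA 2 reached 0.332 and control 2 with siRNA 1 reached 0.205. The main fit treated all libraries as unpaired. Alternatives were another pseudocount, filter, scaling, variance model or treatment of repeated symbols, the replicate block, and leaving out each library. Scaling to the macrophage list was added after seeing the data. It used the median of the list, whose markers moved in both directions.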

Additional observations from a re-analysis of the deposited data

How the results depend on the processing

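Tlr3, Tlr4, Tlr6 and Tlr8 kept their direction and call under all 18 alternatives, with log2 fold changes of -1.05 to -0.68, -0.74 to -0.41, 0.40 to 0.67 and 0.25 to 0.57. Of 179 values of the members, 162 kept direction and call, 9 lost the call, 4 gained it and 4 changed sign. Of 486 values of the other named genes, 446 kept both, 36 lost the call, 3 gained it and 1 changed sign. The count of endosomal receptors that fell was 3, and it was 1 with quantile normalization and 2 relative to the macrophage markers. The count of surface receptors that fell was 2, and it was 1 with no filter on low values, with the filter raised to 1 RPKM (which removes Tlr5), with quantile normalization and relative to the macrophage markers, and 1 to 2 when a library was left out. The count of surface receptors that rose was 1, and it was 2 with median ratio scaling, quantile normalization, the replicate block and relative to the macrophage markers, since Tlr2 was then called (adjusted p = 0.0334, 0.0241, 0.016 and 0.0258, limma). The block changed no other call of the genes named. Sign changes were seen for Tlr1 (0.031 with median ratio scaling, 0.10 with quantile normalization and 0.18 relative to the macrophage markers), Tlr13 (-0.015 with libraries rescaled to the same sum) and Ly96 (0.079 relative to the macrophage markers), none of them called. The cause of these changes was not tested. The difference in endosomal share, 2.09 points, moved by less than the spread between libraries under the alternatives run. Depth limits Tlr5 most, with 19 to 53 estimated reads per library.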
